A study of Mus musculus with 18 samples.

Results

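Expression of 38 genes of glycolysis and of the response to low oxygen was followed in mouse forelimb buds that lose Esco2 in the limb mesenchyme. The genes were taken by name and matched by gene identifier, as 38 of the 55487 identifiers counted. Of these, 24 belong to glycolysis (4 glucose and lactate carriers, 17 enzymes and 3 kinases that set flux), and 14 belong to the hypoxia response (3 genes of oxygen sensing and 11 targets outside glycolysis). All 38 passed the filter on low counts that left 20118 genes for testing.

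RNA sequencing was carried out on total RNA of individual forelimb buds at 3 embryonic stages, E9.5, then E10.5 and E11.5 (days of gestation), with 3 libraries in each of 6 groups. Mutants were Esco2fl/fl;Prrx1-CreTg/0 and controls were Esco2fl/fl, so that both carried Esco2 alleles flanked by loxP sites and the Cre transgene was in the mutants alone. Prrx1-Cre acts in limb mesenchyme, so blood, vessel, ectoderm and muscle precursor cells of the mutant bud keep Esco2, which encodes an acetyltransferase of sister chromatid cohesion. An effect of Cre itself cannot be told apart from that of Esco2 loss, and since separate embryos or litters are not named as the source of a group's libraries, all p-values measure the spread between these libraries, which may be technical.

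Glycolysis splits glucose into pyruvate, and lactate dehydrogenase turns pyruvate into lactate. Several of its steps have alternative enzymes (isozymes) coded by separate genes, and their mixture differs between embryonic, proliferating cells and differentiated tissue. Hif1a encodes the subunit of a transcription factor that is broken down when oxygen is plentiful. When oxygen is low, it raises the transcription of most glycolytic genes and of genes for vessel growth, mitophagy and collagen modification. The limb bud grows out and gains its vessel network over the days sampled.

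Whole-library measures were as follows. Total counts ran from 35034237 to 56230058 per library. Esco2 ranged from 20.5 to 33.6 CPM (read counts scaled to the size of the library) over the 9 control libraries and from 15.3 to 23.8 over the 9 mutant libraries. Every mutant library was below every control at E9.5 and at E10.5. At E11.5 the libraries overlapped, with 20.5 to 30.9 CPM in controls and 22.4 to 23.8 CPM in mutants. Cdkn1a, a p53 target, ranged from 9.10 to 36.3 CPM in controls and from 54.5 to 199 in mutants. A pair of libraries stood apart: control E9.5 replicate 1 had 22294 genes detected against at least 24125 elsewhere, and mutant E10.5 replicate 3 had 8012 CPM of the haemoglobin gene Hbb-y against at most 4472 in any other. Defining markers of limb mesenchyme were present in every group. Their summed level over 8 genes was 2002 to 2092 CPM in control and 952 to 1147 CPM in mutant libraries at E11.5, with 5 of 8 lower in the test. Over the same libraries, markers of macrophages were called higher for 8 of 11 genes (54.2 to 65.3 CPM in controls, 121 to 244 CPM in mutants), of surface ectoderm for 10 of 12 (385 to 657 and 764 to 1007 CPM), of muscle precursors for 3 of 8 (188 to 254 and 331 to 471 CPM) and of erythroid cells for 0 of 15 (3575 to 5067 and 4005 to 9313 CPM). Endothelial markers had 2 higher and 1 lower of 13, neural and Schwann cell markers had 0 of 7, and platelet markers had 1 lower of 6. At E10.5, 4 of 8 mesenchymal markers were lower in mutants, and 11 of 12 ectodermal, 11 of 15 erythroid, 4 of 11 macrophage, 5 of 13 endothelial, 2 of 8 muscle precursor, 2 of 7 neural and Schwann cell and 0 of 6 platelet markers were higher. No gene of these lists passed the test at E9.5. Over all genes tested, the shares called were 8.02% higher and 9.52% lower at E11.5, 7.3% and 6.63% at E10.5, and 0.184% in all at E9.5. Marker counts near these shares are not read as a shift. In bulk RNA, fewer cells of a type and less RNA per cell cannot be told apart, and the part of these shifts in the results given here was not tested.

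Promoter sequences are shown for 3 pairs of isozymes whose members moved in opposite directions in mutants at E11.5, so that the regulatory sequence stands beside the change. Each is the 250 bases before the gene's start in RefSeq (build GRCm38.p6, the assembly also called mm10), written 5′ to 3′ on the gene's own strand. Where RefSeq gives several starts, the one nearest the gene's outermost start in the count files was taken. Whether limb buds use that start was not tested. Capitals mark the core of the hypoxia response element, searched on both strands as ACGTG and in its second form, which starts with G in place of A. A match on the opposite strand is printed as it reads on the gene's own strand, reversed and complemented. An ACGTG core that follows C is also part of an E-box, CACGTG, where matches on both strands overlap.

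The lactate dehydrogenase genes are Ldha, higher in mutants (chr7:46845554-46845803, plus strand), and Ldhb, lower in mutants (chr6:142507958-142508207, minus strand). Ldha held 5 matches, of which 4 were in 2 E-boxes, and Ldhb held 1. The RefSeq start of Ldha lies 4329 bases inside the gene as the count files draw it.
Ldha: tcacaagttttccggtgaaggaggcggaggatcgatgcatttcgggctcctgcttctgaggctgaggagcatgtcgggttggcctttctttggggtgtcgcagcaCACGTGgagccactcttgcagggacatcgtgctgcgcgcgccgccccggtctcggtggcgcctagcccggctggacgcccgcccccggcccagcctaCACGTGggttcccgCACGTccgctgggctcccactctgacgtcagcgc
Ldhb: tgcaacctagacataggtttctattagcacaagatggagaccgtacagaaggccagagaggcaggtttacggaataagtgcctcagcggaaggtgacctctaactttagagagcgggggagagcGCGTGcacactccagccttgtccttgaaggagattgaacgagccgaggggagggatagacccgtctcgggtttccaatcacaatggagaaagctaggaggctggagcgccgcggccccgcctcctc

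The enolase genes are Eno1, higher in mutants (chr4:150236458-150236707, plus strand), and Eno2, lower in mutants (chr6:124769674-124769923, minus strand). Eno1 held 1 match and Eno2 held 0.
Eno1: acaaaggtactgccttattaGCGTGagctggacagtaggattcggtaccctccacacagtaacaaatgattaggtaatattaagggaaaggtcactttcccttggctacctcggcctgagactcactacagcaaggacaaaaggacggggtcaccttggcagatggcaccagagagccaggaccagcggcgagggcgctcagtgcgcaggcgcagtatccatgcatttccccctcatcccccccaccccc
Eno2: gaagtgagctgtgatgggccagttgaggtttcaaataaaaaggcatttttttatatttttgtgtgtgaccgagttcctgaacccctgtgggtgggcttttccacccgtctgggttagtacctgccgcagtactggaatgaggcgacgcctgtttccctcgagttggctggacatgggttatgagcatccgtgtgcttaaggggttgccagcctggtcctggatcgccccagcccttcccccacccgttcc

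The hexokinase genes are Hk2, higher in mutants (chr6:82774455-82774704, minus strand), and Hk1, lower in mutants (chr10:62379909-62380158, minus strand). Hk2 held 2 matches and Hk1 held 0.
Hk2: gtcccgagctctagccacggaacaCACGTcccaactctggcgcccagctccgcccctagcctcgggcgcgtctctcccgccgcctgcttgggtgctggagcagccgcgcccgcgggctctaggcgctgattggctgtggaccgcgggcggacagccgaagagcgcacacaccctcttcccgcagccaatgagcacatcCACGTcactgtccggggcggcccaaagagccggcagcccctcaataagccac
Hk1: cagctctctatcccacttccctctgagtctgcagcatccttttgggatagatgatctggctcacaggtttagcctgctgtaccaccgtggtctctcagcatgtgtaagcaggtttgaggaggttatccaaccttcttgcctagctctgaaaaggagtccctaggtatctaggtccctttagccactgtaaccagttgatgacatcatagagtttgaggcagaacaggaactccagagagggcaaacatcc

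The pairs were chosen for their change, and the number of matches in them does not stand for all 38 genes. Aldoa and Pkm, both higher in mutants, held 0. Pfkm and P4ha2, both lower, held 2 (both in 1 E-box) and 3, and Pfkl held 1. A promoter was in the RefSeq table for 35 of the 38 genes, and 27 of these 35 (77.1%) held at least 1 match, against 12679 of 32851 promoters (38.6%) in the whole table. These shares are not counted alike: 1 promoter was taken per member, while the whole table can hold several per gene and includes genes that were not tested. The motif was in 7 of 9 genes that were higher in mutants at E11.5, 3 of 6 that were lower and 17 of 20 that did not pass the test. It was also present in most of the genes that did not pass, and its part in the changes was not tested. At least 2 matches were in 6 of the 9 higher genes, 2 of the 6 lower genes and 10 of the 20 others, a difference that was not tested. A match describes letters in this window and is not a measurement of binding.

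The course in controls came first, because the mutant values are read against it. From E9.5 to E10.5, glycolytic transcripts fell in normal limb buds. The test called 24 of the 38 genes, 20 lower and 4 higher, where it called 27.5% of all genes (12.5% lower and 15% higher). The glycolysis genes had 15 lower and 4 higher of 24, with a median log2 change of -0.75, and the hypoxia genes had 5 lower and 0 higher of 14, with a median of -0.36, against 0.02 over all genes.

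Enzymes of the shared trunk of the pathway fell together. Ldha, which makes lactate, fell by 1.47 on the log2 scale, Aldoa (aldolase) by 1.30, Pgk1 (phosphoglycerate kinase) by 1.09, Eno1 by 1.07, Pkm (pyruvate kinase) by 0.97, Pfkl (the liver-type phosphofructokinase) by 0.94, Pgam1 (phosphoglycerate mutase) by 0.92, Hk2 by 0.92, Tpi1 (triosephosphate isomerase) by 0.88, Gpi1 (glucose-6-phosphate isomerase) by 0.80 and Gapdh (glyceraldehyde-3-phosphate dehydrogenase) by 0.68. Of the carriers, the lactate exporter Slc16a3 fell by 1.79, the lactate carrier Slc16a1 by 0.69 and the glucose carrier Slc2a1 by 0.54. Pdk1, which holds pyruvate back from the mitochondrion, fell by 0.91. Of the hypoxia genes, Higd1a (a mitochondrial protein induced by hypoxia) fell by 1.21, Bnip3 (a mitophagy receptor) by 1.11, the collagen prolyl hydroxylases P4ha2 and P4ha1 by 0.43 and 0.40, and the oxygen sensor Egln1 by 0.31. The 4 genes that rose were Ldhb by 1.77, the glucose carrier Slc2a3 by 0.70, Hk1 by 0.60 and the muscle-type phosphofructokinase Pfkm by 0.30. Of these rises, those of Slc2a3, Hk1 and Pfkm did not pass with only the groups compared in the fit (adjusted p = 0.221, 0.0614 and 0.128, edgeR), and that of Pfkm also did not pass with no filter on low counts (0.0603) or without control E10.5 replicate 2 (0.0582). The rise of Slc2a3 barely passed (0.0499). It was also lost with no filter on low counts (0.151), a replicate block (0.0556) or the length trend removed (0.079). Over the 6 fits without 1 control library of these stages, it passed in 2.

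Control E9.5 replicate 1 was the highest E9.5 control for many of these genes, Ldha reaching 3704 CPM there against 2221 and 1874 CPM in the others. Without that library and mutant E10.5 replicate 3, 17 of the 38 genes passed (14 lower, 3 higher); the calls lost were Slc2a1, Tpi1, Pdk1, Egln1, Bnip3 and P4ha1, with adjusted p from 0.0594 (edgeR, Slc2a1) to 0.269 (Bnip3), and Slc2a3 at 0.28. The falls of Ldha, Aldoa, Pgk1, Eno1, Pkm, Pgam1, Hk2, Gapdh and Slc16a1 passed in each of the 6 fits that left out 1 control library of these stages. So did the falls of Slc16a3, Gpi1, Pfkl, Higd1a and P4ha2 and the rises of Ldhb and Hk1. The call of P4ha2 was lost with only the groups compared (adjusted p = 0.0546, edgeR).

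From E10.5 to E11.5 the test called 6 of 38 genes in controls (3 higher, 3 lower), where 9.49% of all genes passed (6.6% higher, 2.89% lower). This count and the 24 of the earlier step depended on the libraries in the fit: with only the groups compared, 15 passed from E9.5 to E10.5 and 13 from E10.5 to E11.5, so that fewer changes at the later step are not shown. The shares of all genes called in those 2 fits are not given here. Eno1 fell by a further 0.82, Pkm by 0.52 and Pgam1 by 0.46. Eno2, the neuron-typical enolase, rose by 1.63, the oxygen sensor Egln3 by 0.88 and P4ha2 by 0.49. Of these, Eno2 passed in each of 6 fits that left out 1 library of either stage and the other 5 did not: leaving out control E11.5 replicate 3 ended the calls of Eno1 (adjusted p = 0.066, edgeR), Pkm, Pgam1, Egln3 and P4ha2, and Eno2 alone remained. The count was 2 without control E10.5 replicate 1 or control E11.5 replicate 2, 3 without control E10.5 replicate 3 and 11 without control E9.5 replicate 1.

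Levels per exon length (RPKM, CPM per 1000 bases of exon) ordered the genes. In E9.5 controls Pkm led with 923 ± 207 RPKM (SD, n = 3), followed by Ldha with 786 ± 294 and Eno1 with 544 ± 161, and the SDs of these neighbours overlapped. In E11.5 controls Pkm again led with 327 ± 38.9 RPKM, followed by Gapdh with 255 ± 16.6 and Ldha with 191 ± 14.02. Aldoa, Tpi1, Ldhb and Eno1 then lay between 147 and 155 RPKM and did not differ beyond their spread. Hypoxia genes were lower, from 33.3 RPKM for Bnip3l, a mitophagy receptor, to 0.306 RPKM for Car9, a carbonic anhydrase and hypoxia marker. Together, the 17 enzymes took 1.56% ± 0.27 (SD, n = 3) of all counts in E9.5 controls, 0.877% ± 0.0519 at E10.5 and 0.666% ± 0.0592 at E11.5.

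**Figure D1:**
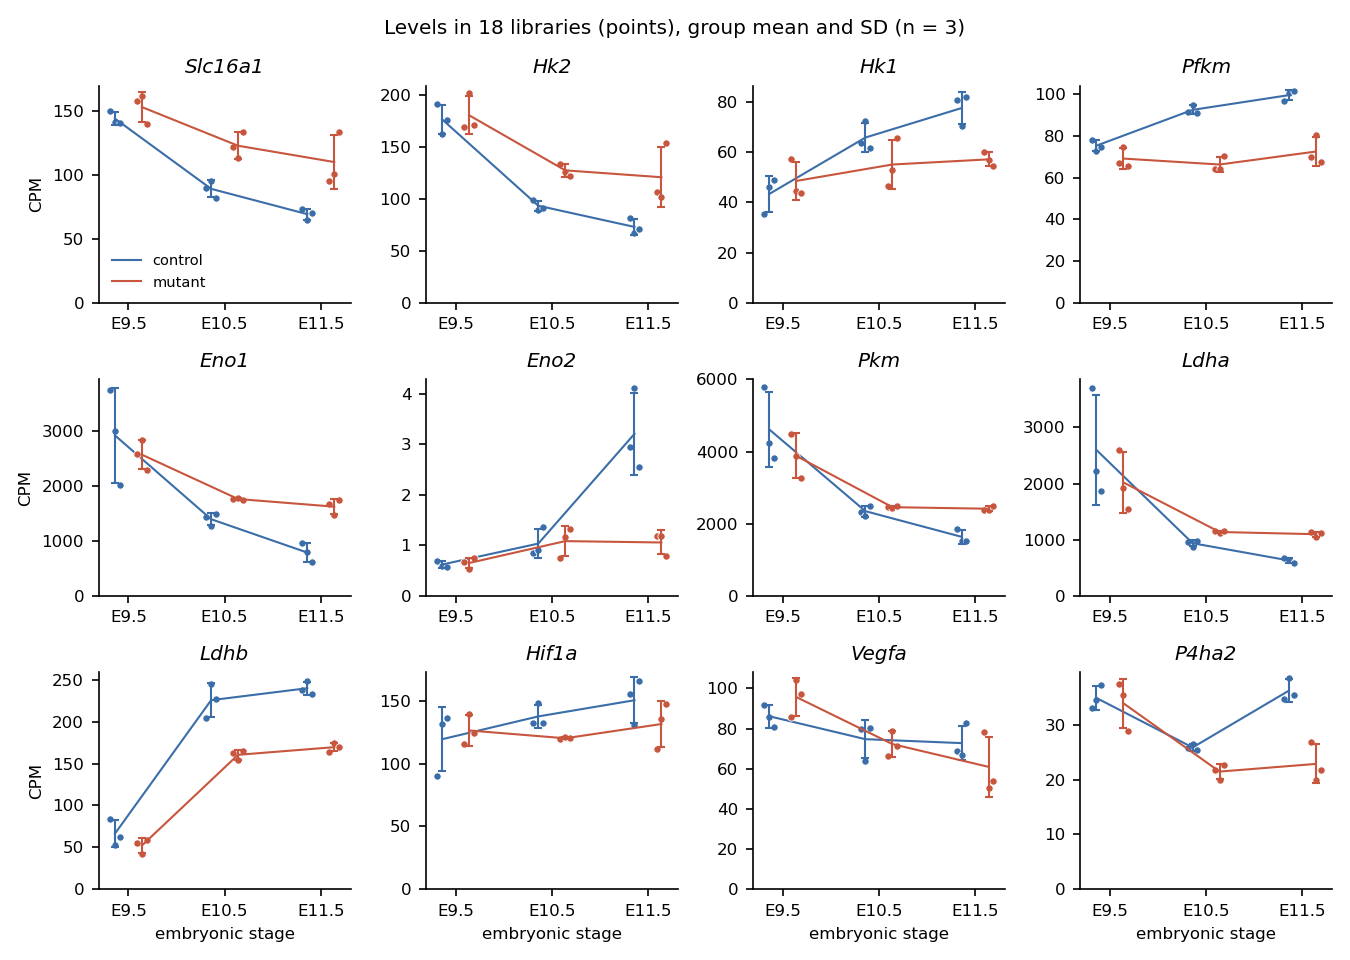
Level of 12 of the 38 genes in each of the 18 libraries (points, CPM on a linear axis from 0) by embryonic stage, with the group mean joined by a line and the SD as a bar (n = 3 libraries), controls in blue and mutants in red. In controls Eno1, Ldha, Pkm, Hk2 and Slc16a1 descend and Ldhb, Hk1 and Pfkm climb, and at E11.5 the mutant libraries lie above the controls for the former and below them for the latter.

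At E9.5, no gene of the 38 passed the test in mutants (edgeR's quasi-likelihood test, Benjamini-Hochberg adjustment), where it called 0.184% of all genes (0.179% higher, 0.00497% lower). An unadjusted p under 0.05 was reached by 1 gene, Ldhb, and DESeq2 called 0 with 2 unadjusted. The median log2 change was -0.16 over the glycolysis genes, -0.07 over the hypoxia genes and -0.01 over all genes. Hif1a stood at 90.2, 132 and 137 CPM in controls and at 115, 140 and 125 CPM in mutants, and the libraries overlapped (log2 change 0.08 ± 0.14 SE, adjusted p = 0.817). Vegfa, which codes for the main growth factor of vessels, differed by 0.15 ± 0.15 (adjusted p = 0.666, edgeR), and Gapdh by -0.15 ± 0.12 (adjusted p = 0.617). The signs of Hif1a and Gapdh turned without control E9.5 replicate 1, to -0.08 and 0.01.

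At E10.5, mutants differed in 4 of the 38 genes, 2 higher and 2 lower, where 13.9% of all genes passed (7.3% higher, 6.63% lower). The 38 genes were thus not called more often than all genes at this stage. The libraries of the compared groups did not overlap for any of these 4. All 4 are glycolysis genes. The median log2 change was 0.11 over the glycolysis genes, -0.07 over the hypoxia genes and 0.02 over all genes.

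Pfkm, which commits sugar phosphate to glycolysis (chr15:98092589-98132451, plus strand), stood at 91.3, 94.9 and 91.1 CPM in E10.5 controls and at 64.3, 64.1 and 70.4 CPM in mutants. Every mutant library was below every control, and the log2 change was -0.48 ± 0.08 (SE, adjusted p = 0.00102, edgeR). Slc16a1, the lactate and pyruvate carrier MCT1 (chr3:104638668-104658462, plus strand), stood at 89.8, 95.4 and 82.0 CPM in controls and at 122, 113 and 134 CPM in mutants. Every mutant library was above every control, by 0.46 ± 0.12 on the log2 scale (adjusted p = 0.0126). Ldhb, which favours the reaction from lactate back to pyruvate, stood at 204.5, 245 and 227.5 CPM in controls and at 162, 154 and 165 CPM in mutants. All mutant libraries were low, with a log2 change of -0.49 ± 0.14 (adjusted p = 0.0282). Hk2, the hexokinase of embryonic and proliferating cells, stood at 99.2, 89.9 and 91.6 CPM in controls and at 134, 126 and 122 CPM in mutants. Each mutant library exceeded the highest control, and the log2 change was 0.45 ± 0.13 (adjusted p = 0.0325).

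All 4 kept their direction in the 6 fits that left out 1 E10.5 library, and their calls were less stable. Pfkm passed in all 6. Slc16a1 passed in 4 and was lost without control replicate 3 (adjusted p = 0.0686, edgeR) and without mutant replicate 3 (0.0753), Ldhb passed in 1 and was lost without control replicate 2 (0.114) or 3 (0.0765) and without mutant replicate 1 (0.0647), 2 (0.0978) or 3 (0.0744), and Hk2 passed in 0, at 0.0635 to 0.115. The count over the 38 was then 2 without control replicate 2 or mutant replicate 1 or 2, and 1 without control replicate 3 or mutant replicate 3. When the fit held the 6 E10.5 libraries alone, so that the spread of E9.5 libraries did not enter, 14 of the 38 genes passed (10 higher, 4 lower). The share of all genes called in that fit is not given here, so the 14 are not read against a background. The 10 added were Eno1, Ldha, Aldoa, Pgam1, Gapdh, Gpi1, Higd1a and Egln1, all higher, and P4ha2 and Hif1a, both lower. Without control E9.5 replicate 1 and mutant E10.5 replicate 3, 6 passed, Higd1a (0.43, adjusted p = 0.0281) and Hk1 (-0.41, adjusted p = 0.0166) being added. Erythroid markers summed to 3010 to 6228 CPM in E10.5 controls and to 6432 to 20200 CPM in mutants, and their part in these results was not tested beyond that left-out library.

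Hif1a at E10.5 stood at 132, 148 and 132.5 CPM in controls and at 119.5, 121 and 120.3 CPM in mutants, which did not overlap, but the difference of -0.19 ± 0.14 did not pass (adjusted p = 0.397, edgeR). Vegfa stood at 80.0, 63.7 and 80.5 CPM in controls and at 66.4, 78.9 and 71.5 CPM in mutants, which overlapped (-0.05 ± 0.15, adjusted p = 0.867). Gapdh stood at 1323, 1254 and 1397 CPM in controls and at 1507, 1615 and 1550 CPM in mutants, without overlap but short of the threshold (0.23 ± 0.12, adjusted p = 0.226). In all, the libraries of 15 of the 38 genes did not overlap at E10.5 (10 higher, 5 lower), as for 22.9% of all genes with mutants higher and 23.2% with mutants lower.

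At E11.5, 9 glycolysis genes were higher in mutants and 4 were lower, and 2 hypoxia genes were lower. The test called 15 of the 38 genes, 9 higher and 6 lower, where it called 17.5% of all genes (8.02% higher, 9.52% lower), and the libraries did not overlap for any of the 15. Over the 38, libraries did not overlap for 11 genes with mutants higher and 8 with mutants lower, as for 19.8% and 20.7% of all genes. All 9 higher genes belong to glycolysis: 8 enzymes and 1 carrier. The 6 lower genes were the isozyme genes Pfkm, Eno2, Ldhb and Hk1 and the hypoxia targets P4ha2 and Mxi1. The median log2 change was 0.31 over the 24 glycolysis genes, -0.18 over the 14 hypoxia genes and 0.01 over all genes.

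**Figure D2:**
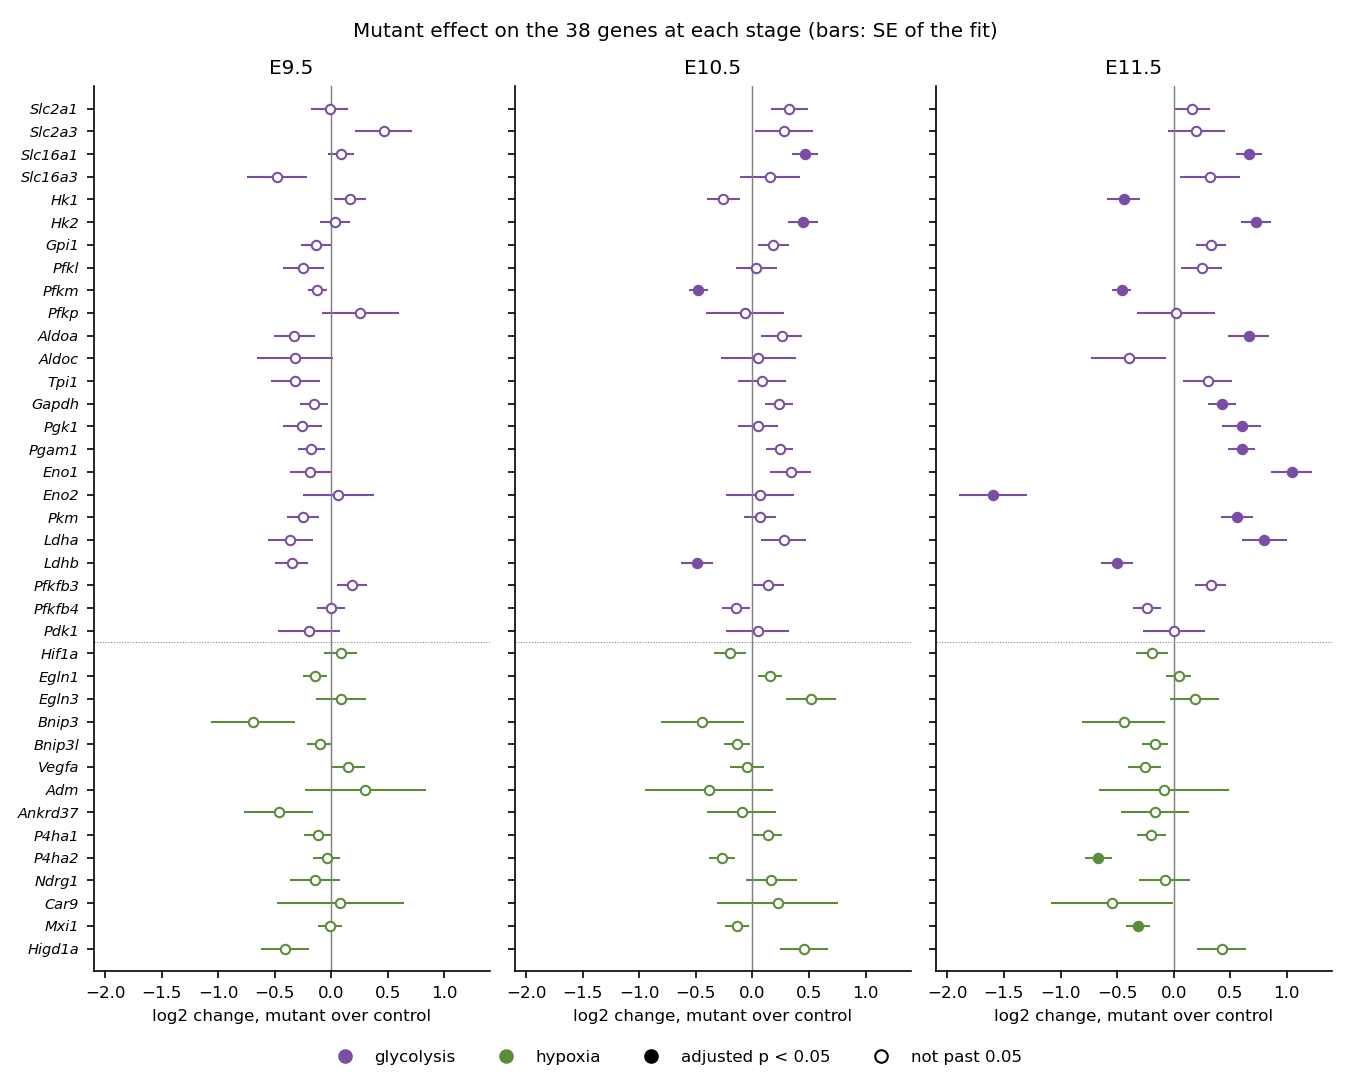
Log2 change of mutants over controls for each of the 38 genes at each stage, glycolysis genes in purple above the dotted line and hypoxia genes in green below it, with the SE of the fit as a bar and filled points for an adjusted p under 0.05. Filled points number 0 at E9.5, 4 at E10.5 and 15 at E11.5, and Eno1 lies farthest to the right and Eno2 farthest to the left at E11.5.

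Among the carriers, Slc16a1 stood at 73.1, 64.5 and 70.1 CPM in E11.5 controls and at 95.3, 101 and 134 CPM in mutants. Every mutant library was above every control, and the log2 change was 0.67 ± 0.12 (SE, adjusted p = 0.000852, edgeR). The other carriers did not pass: Slc2a1 differed by 0.16, Slc2a3 by 0.20 and Slc16a3 by 0.32, with overlapping libraries.

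Among the enzymes, Hk2 stood at 81.3, 67.3 and 70.7 CPM in controls and at 107, 102 and 154 CPM in mutants, with mutant replicate 3 well above the other mutants (0.73 ± 0.13, adjusted p = 0.0013, edgeR). Eno1, the ubiquitous enolase, had the largest rise of the 38. It stood at 961, 792 and 613 CPM in controls and at 1672, 1466 and 1738 CPM in mutants, and control replicate 3 was the lowest of all (1.04 ± 0.18, adjusted p = 0.000923). Eno1 has a near-identical copy, Eno1b, and with the counts of both summed the log2 change was 0.99 (adjusted p = 0.000434). Pgam1 (chr19:41911923-41918660, plus strand) stood at 111, 97.7 and 95.7 CPM in controls and at 171, 135 and 155 CPM in mutants. The mutant libraries were all higher, by 0.60 ± 0.12 on the log2 scale (adjusted p = 0.00194).

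Ldha stood at 676, 634 and 583 CPM in E11.5 controls and at 1133, 1046 and 1117 CPM in mutants. The mutants lay far above all controls, with a log2 change of 0.80 ± 0.20 (SE, adjusted p = 0.0103, edgeR). Pkm (chr9:59656368-59679375, plus strand) stood at 1861, 1524 and 1524 CPM in controls and at 2367, 2385 and 2494 CPM in mutants, which again were all higher (0.56 ± 0.14, adjusted p = 0.0115). Aldoa (chr7:126795234-126800751, minus strand) stood at 495, 444 and 413.5 CPM in controls and at 788, 651 and 705 CPM in mutants, without overlap (0.67 ± 0.18, adjusted p = 0.0164). Gapdh rose less, by 0.43 ± 0.12 (adjusted p = 0.0226), from 1054 ± 68.5 CPM (SD, n = 3) in controls to 1417 ± 66.5 CPM in mutants. Pgk1 rose by 0.60 ± 0.18 (adjusted p = 0.0255), from 217 ± 21.5 to 329 ± 30.6 CPM. Reads of Pkm that fall on the 15.3% of its exon bases shared with Gm49759, and of Pfkm on the 10.2% shared with Gm26513, are left out by the counting, and Gapdh, Pgk1, Ldha and other enzymes have many processed copies in the genome that can take reads from them.

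Other isozyme genes fell. Those of enolase, lactate dehydrogenase and hexokinase act at a step where another gene was higher, while at the phosphofructokinase step Pfkm fell and neither Pfkl (0.25) nor Pfkp (0.02) passed. Pfkm stood at 96.8, 100.3 and 101 CPM in E11.5 controls and at 69.7, 80.3 and 67.3 CPM in mutants, all lower (-0.46 ± 0.08, adjusted p = 0.00125, edgeR). Eno2 was scarce, at 2.95, 4.11 and 2.56 CPM in controls and 1.19, 1.19 and 0.783 CPM in mutants, and it had the largest fall of the 38 (-1.60 ± 0.30, adjusted p = 0.00154). Ldhb fell by 0.50 ± 0.14 (adjusted p = 0.0212), from 240 ± 7.81 CPM (SD, n = 3) to 170 ± 5.15 CPM. Hk1, the hexokinase of most adult tissues, fell by 0.44 ± 0.14 (adjusted p = 0.0418), from 77.7 ± 6.36 to 57.2 ± 2.74 CPM, and did not pass with a replicate block (0.0592) or with the length trend removed (0.0925). The enzymes that did not pass were Gpi1, Pfkl, Pfkp, Aldoc and Tpi1, with log2 changes from -0.40 to 0.33, and the 3 kinases, Pfkfb3, Pfkfb4 and Pdk1, differed by 0.33, -0.23 and 0.00.

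The mixture of isozymes at a step was described by shares of their summed RPKM. These are derived from the levels of the called genes, so they restate those calls in another unit, and no test was made. Ldhb made up 5.29% ± 1.08 (SD, n = 3) of Ldha and Ldhb together in E9.5 controls, 33.7% ± 3.21 at E10.5 and 44.5% ± 1.66 at E11.5. In mutants it made up 5.37% ± 1.79, 22.9% ± 0.36 and 24.6% ± 1.33, so that its share in E11.5 mutants was below that in every E10.5 control (31.0% to 37.2%). Hk2 made up 85.3%, 67.0% and 57.3% of Hk1 and Hk2 in controls and 84.1%, 76.8% and 74.6% in mutants over the stages. Pfkm made up 20.6%, 37.3% and 44.2% of the phosphofructokinase transcripts in controls and 22.4%, 29.4% and 32.8% in mutants. Eno2 stayed a small part of the enolases, 0.471% ± 0.12 in E11.5 controls and 0.0753% ± 0.0214 in mutants. Other shares lay close together at E11.5: Slc2a3 made up 36.9% ± 3.76 of Slc2a1 and Slc2a3 in controls and 37.8% ± 6.01 in mutants, and Pfkp 0.963% ± 0.0844 and 0.99% ± 0.121 of the phosphofructokinases. Slc16a3 made up 37.9% to 42.9% of Slc16a1 and Slc16a3 in controls and 29.4% to 45.6% in mutants, which overlapped.

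**Figure D3:**
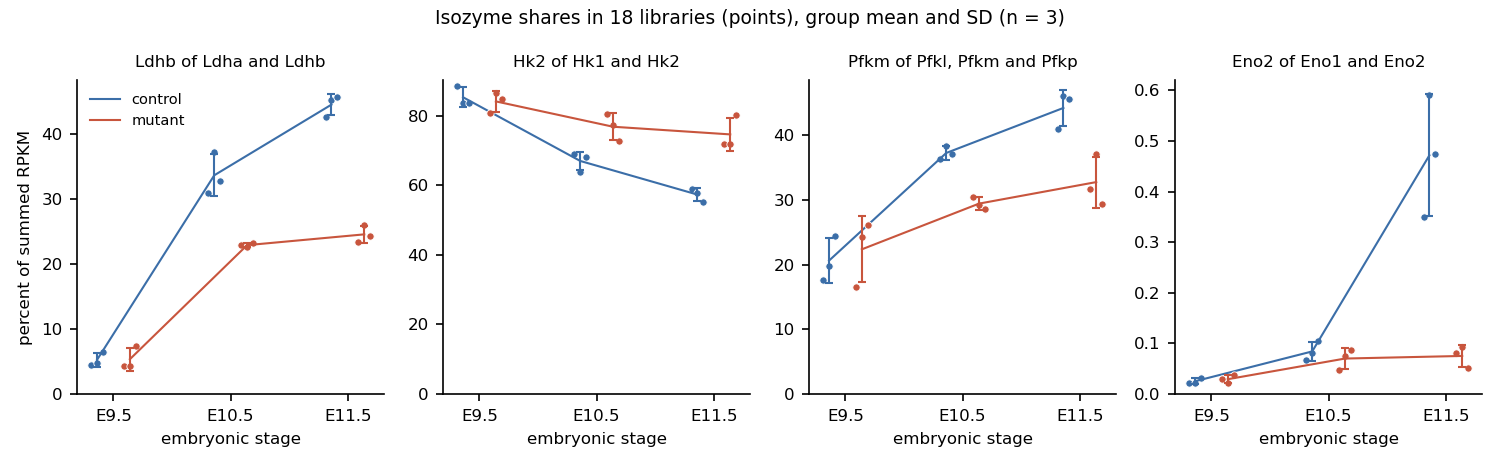
Share of summed RPKM taken by Ldhb, Hk2, Pfkm and Eno2 among the isozymes named over each panel, in percent on a linear axis from 0, by stage in each of the 18 libraries (points) with group mean and SD (n = 3). Controls (blue) move from 5.29% to 44.5% for Ldhb between E9.5 and E11.5, and mutants (red) reach 24.6%.

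The 17 enzymes together took 0.666% ± 0.0592 (SD, n = 3) of all counts in E11.5 controls and 0.968% ± 0.0555 in mutants. At E10.5 the shares were 0.877% ± 0.0519 and 0.995% ± 0.0113, and at E9.5 1.56% ± 0.27 and 1.39% ± 0.23. The mutant share at E11.5 (0.912% to 1.02%) was above every E11.5 control (0.605% to 0.724%). Only its lowest library lay within the range of the E10.5 controls (0.82% to 0.923%), and the others were above it. The E10.5 mutants (0.982% to 1%) lay within the range of the E11.5 mutants.

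Among genes of oxygen sensing, none passed at E11.5. Hif1a (chr12:73901375-73947530, plus strand) stood at 155, 130.5 and 166 CPM in controls and at 112, 135 and 148 CPM in mutants, which overlapped (-0.19 ± 0.14 SE, adjusted p = 0.384, edgeR). The prolyl hydroxylases that mark its protein for breakdown, Egln1 and Egln3, differed by 0.04 and 0.19. Among targets, P4ha2, which hydroxylates collagen (chr11:54100095-54131665, plus strand), stood at 34.8, 38.7 and 35.5 CPM in controls and at 26.9, 20.0 and 21.8 CPM in mutants. All mutant libraries were lower, by -0.67 ± 0.12 on the log2 scale (adjusted p = 0.000983). Mxi1, which codes for a MAX-binding repressor, fell by 0.31 ± 0.10 (adjusted p = 0.046), from 44.3 ± 4.03 CPM (SD, n = 3) to 35.6 ± 3.15 CPM. That call did not hold under 6 other settings on all libraries or on the E11.5 libraries: adjusted p was 0.129 with no filter on low counts, 0.0517 with a filter at 1 CPM, 0.0625 with a replicate block, 0.229 with the length trend removed, 0.0565 with only the groups compared (all edgeR) and 0.0723 with limma on the authors' log2 FPKM.

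Vegfa stood at 68.9, 66.8 and 82.6 CPM in E11.5 controls and at 78.1, 50.6 and 54.1 CPM in mutants, with mutant replicate 1 among the controls and the others below them. The log2 change was -0.26 ± 0.15 (SE, adjusted p = 0.258, edgeR), and without mutant replicate 1 it was -0.47 and passed (adjusted p = 0.0239). Higd1a stood at 31.7, 28.6 and 30.4 CPM in controls and at 39.4, 37.1 and 45.2 CPM in mutants, without overlap but short of the threshold (0.42 ± 0.21, adjusted p = 0.195), and it passed at 0.0101 when control E9.5 replicate 1 was left out. The remaining targets Bnip3, Bnip3l, Adm, Ankrd37, P4ha1, Ndrg1 and Car9 did not pass, with log2 changes from -0.54 for Car9 to -0.08 for Ndrg1. Adm (0.154 to 1.12 CPM) and Car9 (0.308 to 0.845 CPM) had few counts at E11.5, which limits the precision of their changes.

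Of the 15 calls at E11.5, those of Slc16a1, Hk2, Pfkm, Pgam1, Eno1, Eno2 and P4ha2 passed in each of the 6 fits that left out 1 E11.5 library. Ldha passed in 5 and was lost without control replicate 3 (adjusted p = 0.0506, edgeR). Leaving out control replicate 2 or 3 also ended the calls of Pkm (0.0548 and 0.0585), Aldoa (0.0548 and 0.0749), Gapdh (0.0729 and 0.0936) and Pgk1 (0.0679 and 0.111), and 9 of the 38 genes passed without control replicate 2 and 8 without control replicate 3. Leaving out mutant replicate 1 ended those of Aldoa (0.06), Gapdh (0.068), Pgk1 (0.0767) and Ldhb (0.0641). Without mutant replicate 3, the calls of Gapdh (0.0528), Pgk1 (0.0768) and Ldhb (0.0729) ended, as did that of Ldhb without control replicate 2 (0.0662). Hk1 and Mxi1 each passed in 1 of the 6 fits, Hk1 without control replicate 2 and Mxi1 without mutant replicate 1; the highest adjusted p was 0.146 for Hk1, without mutant replicate 3, and 0.209 for Mxi1, without control replicate 3. No alternative that was run turned the direction of any of the 15.

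The mutant effect itself was compared between stages by an interaction term. No gene of the 38 passed, either between E9.5 and E10.5 (2.22% of all genes passed, 0.925% with a higher and 1.29% with a lower difference) or between E10.5 and E11.5 (0.0746%, as 0.00497% and 0.0696%). Unadjusted p-values under 0.05 were reached by 8 and 6 genes, and DESeq2 called 0 and 1, the latter being Eno2 (log2 difference -1.66, adjusted p = 0.0266). That 4 genes passed at E10.5 and 15 at E11.5 is therefore not shown to be a difference between the stages. Eno1 differed from controls by 0.34 at E10.5 and by 1.04 at E11.5, an interaction of 0.70 ± 0.26 (SE, adjusted p = 0.412, edgeR).

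The effect at E11.5 was set beside the normal change between E9.5 and E10.5, a comparison in which no library is shared. All 9 genes that were higher in E11.5 mutants had fallen in controls from E9.5 to E10.5, where 743 of the 1613 genes (46.1%) that were higher among all tested had done so. Most glycolysis genes fell at that step, as given above. Among them, Slc2a1, Slc16a3, Gpi1, Pfkl, Tpi1 and Pdk1 fell in controls and did not pass in E11.5 mutants. A link between the fall and the mutant effect was not tested. Of the 6 lower genes, 3 had risen in controls (Ldhb, Hk1 and Pfkm), 1 had fallen (P4ha2) and 2 had not passed (Eno2 and Mxi1), where 1065 of 1916 lower genes (55.6%) had risen, so that the lower members show no more of this than all lower genes. The rises of Hk1 and Pfkm did not pass in every fit, as given above. Such opposite signs were not general among the hypoxia genes: Bnip3, P4ha1 and P4ha2 had fallen in controls and also had negative log2 changes in E11.5 mutants (-0.44, -0.20 and -0.67), of which that of P4ha2 passed. Among the higher genes, Ldha averaged 2600 CPM in E9.5, 938 in E10.5 and 631 in E11.5 controls and 1099 in E11.5 mutants.

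**Figure D4:**
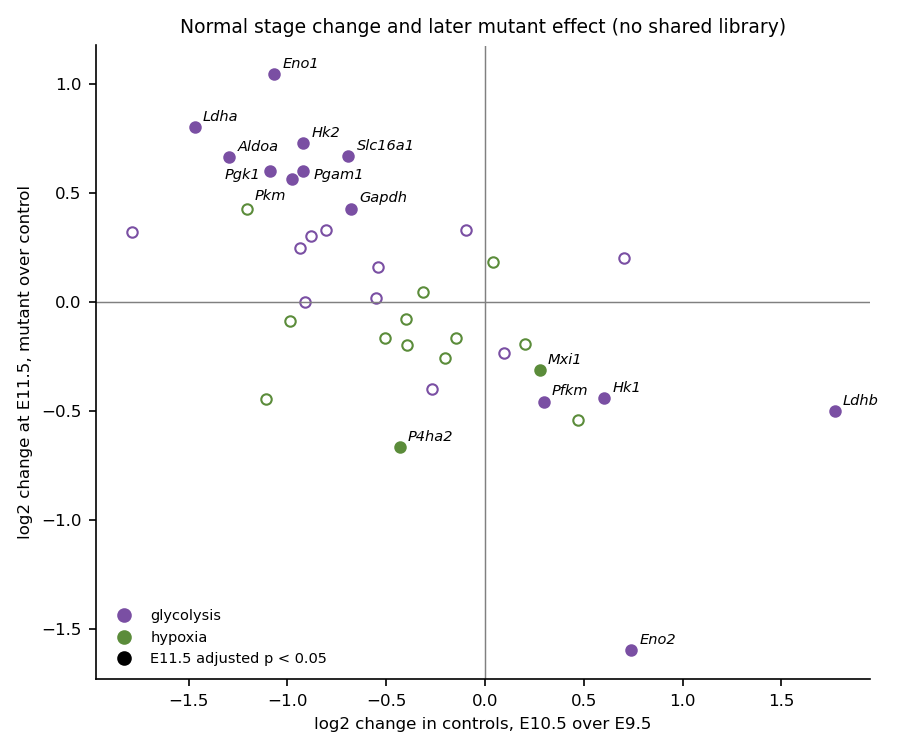
Log2 change of each of the 38 genes in controls from E9.5 to E10.5 (horizontal axis) and in mutants over controls at E11.5 (vertical axis), with glycolysis genes in purple, hypoxia genes in green and filled, named points for an E11.5 adjusted p under 0.05. The 9 genes above 0 among the named points all lie left of 0, and Ldhb, Hk1, Pfkm, Mxi1 and Eno2 lie to the right and below.

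Neighbouring pathways were counted from lists of genes outside the 38. Of 29 tested other genes of glycolysis and pyruvate use, 4 were higher and 6 lower at E11.5, and 1 and 3 at E10.5. These and the next counts are read against the shares of all genes that passed, 17.5% at E11.5 and 13.9% at E10.5, and the E10.5 count is near its background. The smallest adjusted p-values at E11.5 were those of Pdk2, a kinase that inhibits pyruvate dehydrogenase (log2 change -1.36), Hkdc1, a hexokinase-like gene (-3.98), Pdha1, the catalytic subunit of pyruvate dehydrogenase (0.44), and Tigar, a p53 target that lowers glycolytic flux (0.48). At E10.5 the called genes included Slc2a4, the insulin-responsive glucose carrier (-0.80), Pklr, the pyruvate kinase of liver and red cells (1.44), and Eno3 (muscle enolase, -0.39). Of 16 enzymes of the citric acid cycle, 4 were higher and 0 lower at E11.5, namely Idh3a by 0.56, Cs by 0.41, Suclg2 by 0.36 and Dlst by 0.26, and Idh3a was also higher at E10.5, by 0.27.

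Of 28 tested other genes of oxygen sensing and the hypoxia response, 3 were higher and 10 lower at E11.5, and 5 and 7 at E10.5. The smallest adjusted p-values at E11.5 were those of Ak4, a mitochondrial adenylate kinase (log2 change 0.91), Ccng2, a cyclin that restrains the cell cycle (-0.79), Zfp395 (-0.59) and Ppp1r3c, which directs a phosphatase to glycogen (-1.41). Those at E10.5 were Ccng2 (-0.81), Arnt2, a partner of HIF proteins (-0.93), Ppp1r3c (-1.46) and Car12, a carbonic anhydrase (1.07). None of 9 genes of the VEGF family and its receptors passed at any stage with edgeR, and an unadjusted p under 0.05 was reached by 2 at the first stage, 0 at the next and 2 at the last. At E9.5 no gene of these 4 lists passed (edgeR), and 2, 5, 2 and 3 of the other glycolysis, other hypoxia, VEGF and citric acid cycle genes had an unadjusted p under 0.05.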

How the data were processed

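RNA of 18 libraries in 6 groups was analysed from the deposited counts of reads per gene. Per the file headers, the authors made these counts with featureCounts 1.6.4 as reverse-stranded paired-end counting over exons of GENCODE M22 on mm10; cutadapt, STAR and limma are named in the submitters' processing notes without settings. A deposited table of log2 FPKM, computed by the authors for 14692 genes in a way not given in the sources used here, served as an alternative only. Symbols came from GENCODE M21 by identifier (99.8% matched). After filterByExpr had removed genes of low count and TMM had scaled the library sizes, edgeR 4.0.16 (R 4.3.3) fitted 1 robust quasi-likelihood model over the 6 groups. Adjusted p-values are Benjamini-Hochberg over 20118 genes, and "rose", "fell", "passed" and "called" mean an adjusted p under 0.05. Log2 changes carry the SE of the fit. CPM and RPKM use the TMM-scaled library size, and at these totals counting error matters for the scarcest genes only. The 38 genes, the other lists and the alternatives (DESeq2 1.42.0, limma 3.58.1 with voom and on log2 FPKM, filters, replicate block, length trend, left-out libraries) were chosen with earlier results of these data known. Full values are given for called genes whose libraries do not overlap, at most 10 a stage by smallest adjusted p, and always for Hif1a, Vegfa and Gapdh; up to 4 called genes of each other list are named per stage. Higd1a, Adm and Car9, the genes called under other settings only and some uncalled members were named after their values were seen. The scripts were tested on simulated data. Promoter sequences are RefSeq's. One gene of the wider pathway lists is counted there and is not reported by name here.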

Additional observations from a re-analysis of the deposited data

How the results depend on the processing

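Counts of changed genes among the 38 were within 1.5 times of those reported under most alternatives, and the direction of every called gene was kept in all alternatives run. At E10.5, where 4 passed, the count was 14 when only the 6 libraries compared entered the fit and 1 with the 4 libraries whose description begins with the same number. For the interaction between E10.5 and E11.5 (0), DESeq2 gave 1. From E9.5 to E10.5 in controls (24), the count was 15 with only the groups compared. From E10.5 to E11.5 (6), it was 13 with only the groups compared and 11 without both libraries that stood apart. The shares of all genes called under these alternatives are not given here, so the counts are not read against a background. Leaving out 1 of the 18 libraries at a time gave 0 to 0 genes at E9.5, 1 to 5 at E10.5, 8 to 16 at E11.5, 0 to 1 and 0 to 0 for the interactions, and 17 to 24 and 1 to 11 for the control steps. The cause of these changes was not tested. Signs turned only for genes that had not passed. At E9.5 without control replicate 1, alone or with mutant E10.5 replicate 3, Gapdh gave 0.01 and Hif1a -0.078; over the 6 fits without 1 E9.5 library, Gapdh ran from -0.254 to 0.01 and Hif1a from -0.078 to 0.19. At E10.5 Vegfa gave 0.003 without control replicate 1, 0.009 without control replicate 3, 0.010 without mutant replicate 1 and 0.016 with the 4 libraries of the same number, with a range of -0.152 to 0.010 over the 6 fits without 1 library. A replicate block added to the model gave counts of 0, 4 and 13 at the 3 stages (the calls of Hk1 and Mxi1 ended at the last), 0 and 0 for the interactions and 23 and 8 for the control steps. The replicate numbers are not shown to pair the libraries: correlations of same-numbered deviations were 0.0588 to 0.135 at E9.5, then -0.00423 to 0.0661 at E10.5, and -0.123 to 0.099 at the last stage. Outside E10.5, descriptions begin with the same number for control replicate 1 and mutant replicate 3 at E11.5 (0.215) and control replicate 2 and mutant replicate 1 at E9.5 (-0.0966). Control E11.5 replicates 2 and 3 share a number that no mutant has. Its part in the results was not tested beyond E10.5. Depth limits Adm, Car9 and Eno2, which have few counts.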

Other observations

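Reads of Eno1b, the near-identical copy of Eno1, were unevenly spread over the libraries. They reached 373 CPM in mutant E9.5 replicate 1, 257 CPM in control E9.5 replicate 3 and 80.9 CPM in control E11.5 replicate 3, which is 12.6%, 11.3% and 11.7% of the counts of both genes. In the other 15 libraries Eno1b stood between 1.21 and 3.52 CPM. The 3 libraries belong to different groups or stages, and 2 of them, control E9.5 replicate 3 and control E11.5 replicate 3, had the lowest Eno1 level of their group. With the counts of both genes summed, an alternative chosen after seeing the data, the log2 changes of Eno1 were -1.11 (adjusted p = 0.000102, edgeR) and -0.78 (adjusted p = 0.00563) for the control steps, which kept both calls.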
